A study of Citrus junos with 4 samples.

Results

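The genes described here are those of the carotenoid and plastid isoprenoid pathway in mature leaves of Ziyang xiangcheng (Citrus junos), a citrus rootstock. They were chosen by words in the deposited gene descriptions, without use of any expression value: a gene was a member when its text held 1 of 10 terms, such as phytoene, lycopene, carotene, violaxanthin, geranylgeranyl or the names of enzymes of the plastid route to isoprenoids, and neither of 2 excluded terms for zeaxanthin epoxidases and 9-cis-epoxycarotenoid dioxygenases. This gave 95 of the 29406 genes of the table. The words also caught genes led by the name of another protein. These were early light-induced proteins, plastid ribosomal protein S1, protein prenyltransferases, a Rab escort protein and an importin. Others of this kind were a disease resistance protein, a protoporphyrinogen oxidase and a further cytochrome P450. The remaining 79 members had a leading description counted as a pathway enzyme. Besides carotenoid genes, they hold enzymes of tocopherol, plastoquinone and chlorophyll synthesis and a farnesyl diphosphate synthase, Cs4g08260.

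Plants of a single cultivar that differ in ploidy were compared by RNA-seq, to ask how genome doubling affects leaf gene expression: doubled diploids (4×) and the diploids (2×). Each had 2 libraries, called 4×-1, 4×-2, 2×-1 and 2×-2, and each library was made from leaves pooled from several plants, so single plants were not measured. All leaves were untreated, 3 to 5 months old and taken close to the plant top. Levels are given in RPKM, reads mapped to a single place, scaled to gene length in kilobases and to library size. The values are relative to the library total, so that fewer cells of a type and less RNA per cell cannot be told apart.

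Carotenoids are built in plastids from isopentenyl diphosphate made by the methylerythritol phosphate (MEP) route. Prenyl transferases join these units to geranylgeranyl diphosphate, which is shared by carotenoids, the phytyl tails of chlorophyll and tocopherol, and prenylated proteins. Phytoene synthase commits it to carotenoids, desaturases and an isomerase turn phytoene into red lycopene, and cyclases and hydroxylases then make lutein on an epsilon branch and zeaxanthin and violaxanthin on a beta branch. In leaves these pigments serve light harvesting and photoprotection, and violaxanthin is also a source of abscisic acid.

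The library totals recovered from the RPKM values were 9363285 and 8874306 reads in 4×-1 and 4×-2, and 9324856 and 9545185 reads in 2×-1 and 2×-2. On a gene of 1 kb, 3 reads corresponded to 0.314 to 0.338 RPKM, which was taken as the limit that a value of 0 allows and which covers counting error only. The label of green leaf was borne out: 22 genes described as Rubisco small subunits, chlorophyll a-b binding proteins or oxygen-evolving enhancers summed to 18642 and 18842 RPKM in 4× and to 15704 and 19221 RPKM in 2×. These were matched anywhere in the description, and the 14 genes whose text begins with such a name summed to 10977 and 11052 RPKM in 4× and 8070 and 9979 RPKM in 2×. Genes not expected in leaf blades, matched anywhere in the text, were 130 and summed to 2345 and 1922 RPKM in 4× and 2525 and 2600 RPKM in 2×. Among those whose text begins with such a name, the gene led by AGAMOUS had 0 RPKM in every library and the 3 genes led by legumin or 11S globulin summed to at most 0.441 RPKM, whereas 8 genes led by "pollen-specific" summed to 101 and 90.0 RPKM in 4× and 121 and 135 RPKM in 2×. The part of these marker levels in the results was not tested.

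Of the 95 members, 84 had reads in some library and 67 reached the mean of 1 RPKM needed for testing. The other 28 comprised 17 with reads but a lower mean and 11 at 0 RPKM in all 4 libraries. The pathway was well expressed: 43 members averaged at least 15 RPKM and 14 averaged at least 100 RPKM. No member passed an adjusted p of 0.05 for 4× against 2× with limma (Benjamini-Hochberg over 16157 genes), where 224 genes, or 1.39% of those tested, did. Of these, 64 (0.396%) were higher and 160 (0.990%) lower in 4×, a split that was 69 and 109 after median of ratios scaling. The smallest adjusted p among the members was 0.058. At an unadjusted p below 0.05 stood 8 members, 1 of them higher and 7 lower in 4×, or 11.9% of the tested members against 13.3% of all tested genes, and voom on the recovered reads called 1 member, against 2.50% of all tested genes.

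The levels in the 4× libraries were all above those in the 2× libraries for 14 tested members, and for 17.5% of all tested genes. They were all below for 20 tested members, and for 26.2% of all tested genes, and the groups overlapped for 33 members. Together 50.7% of the tested members did not overlap between the groups, against 43.7% of all tested genes. The median log2 difference, 4× minus 2× on the log2(RPKM + 0.5) scale, was -0.000 for the members and -0.027 for all tested genes. For 60 members, or 89.6%, the 95% interval of the difference lay within 1 log2 unit either way, against 92.0% of all tested genes. A change of 2-fold or more in RPKM + 0.5 thus lay outside these intervals. For genes of low level this scale understates the change in RPKM itself. Over the 53 tested members with a pathway enzyme as leading description, the median was 0.018 and none was called.

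**Figure D1:**
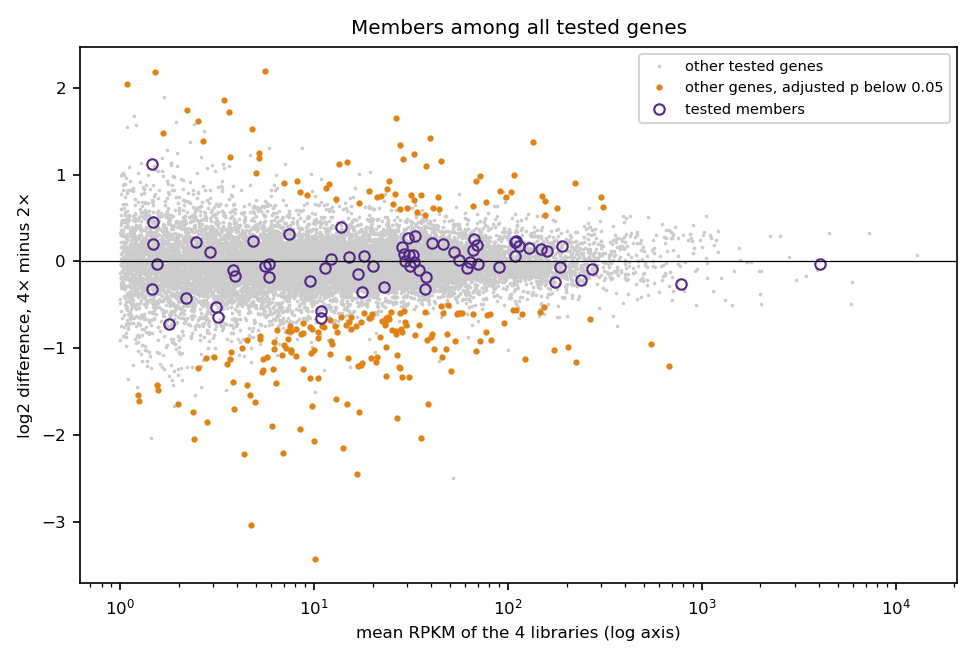
Log2 difference (4× minus 2×, vertical axis) against the mean RPKM of the 4 libraries (log axis) for the 16157 tested genes. Open circles are the 67 tested members, filled coloured points are the 224 genes with an adjusted p below 0.05, none of them a member, and grey points are the other genes.

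The spread within 2× was uneven. The library 2×-1 was the lowest of the 4 for 27 of the 67 tested members (40.3%), against 19.4% of all tested genes, and 2×-2 was the highest for 25 members (37.3%), against 22.8% of all tested genes. The Rubisco small subunit genes also had their lowest level in 2×-1, with 8081 and 8073 RPKM in 4×-1 and 4×-2 and 5875 and 7095 RPKM in 2×-1 and 2×-2. Leaving out 2×-1 lowered the calls over all genes to 144, and leaving out 2×-2 lowered them to 77, and in neither case was a member called. The part of 2×-1 in the members' differences was not tested beyond the values without it that are given below.

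The MEP route was represented by 12 members, of which 10 were tested and 1 had 0 RPKM throughout. Its enzymes were expressed at unequal levels, and after the first step most of the level of each step came from a single copy. The synthase that makes hydroxymethylbutenyl diphosphate, Cs8g16700, had the highest level of the route, with 183 and 178 RPKM in 4× and 185 and 194 RPKM in 2× (difference -0.07, 95% interval -0.31 to 0.17, adjusted p = 0.865). Next was the reductoisomerase Cs5g05440, the second enzyme of the route, at 88.6 and 85.9 RPKM in 4× and 86.4 and 96.6 RPKM in 2×. The reductase of the last step, Cs5g28200, had 54.4 and 65.0 RPKM in 4× and 62.3 and 62.6 RPKM in 2×, a range in 4× that enclosed the 2× values.

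The first step, condensation of pyruvate with glyceraldehyde phosphate by deoxyxylulose phosphate synthase, had 4 tested copies with differences from -0.32 to -0.01. All 4 were negative, and 3 were negative after median of ratios scaling. The median over all tested genes was -0.027, and 0.003 after that scaling. The highest copy, Cs1g20530, had 35.3 and 31.3 RPKM in 4×, below the 41.5 and 41.6 RPKM in 2×. Its difference was -0.32 (SE 0.11, 95% interval -0.56 to -0.07), with an unadjusted p of 0.0171 and an adjusted p of 0.232 from limma, and it ranged from -0.40 to -0.23 when single libraries were left out. The second highest copy, Cs9g05150, overlapped between groups, at 29.9 and 35.1 RPKM in 4× and 27.2 and 39.1 RPKM in 2×. A minor reductoisomerase copy, Cs5g05450, lay above in 4×, at 7.14 and 9.49 RPKM against 6.98 and 6.09 RPKM in 2× (difference 0.31, 95% interval -0.08 to 0.71, and 0.12 without 4×-2). Summed over its 12 members, the MEP route had 429 and 438 RPKM in 4× and 441 and 472 RPKM in 2×.

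**Figure D2:**
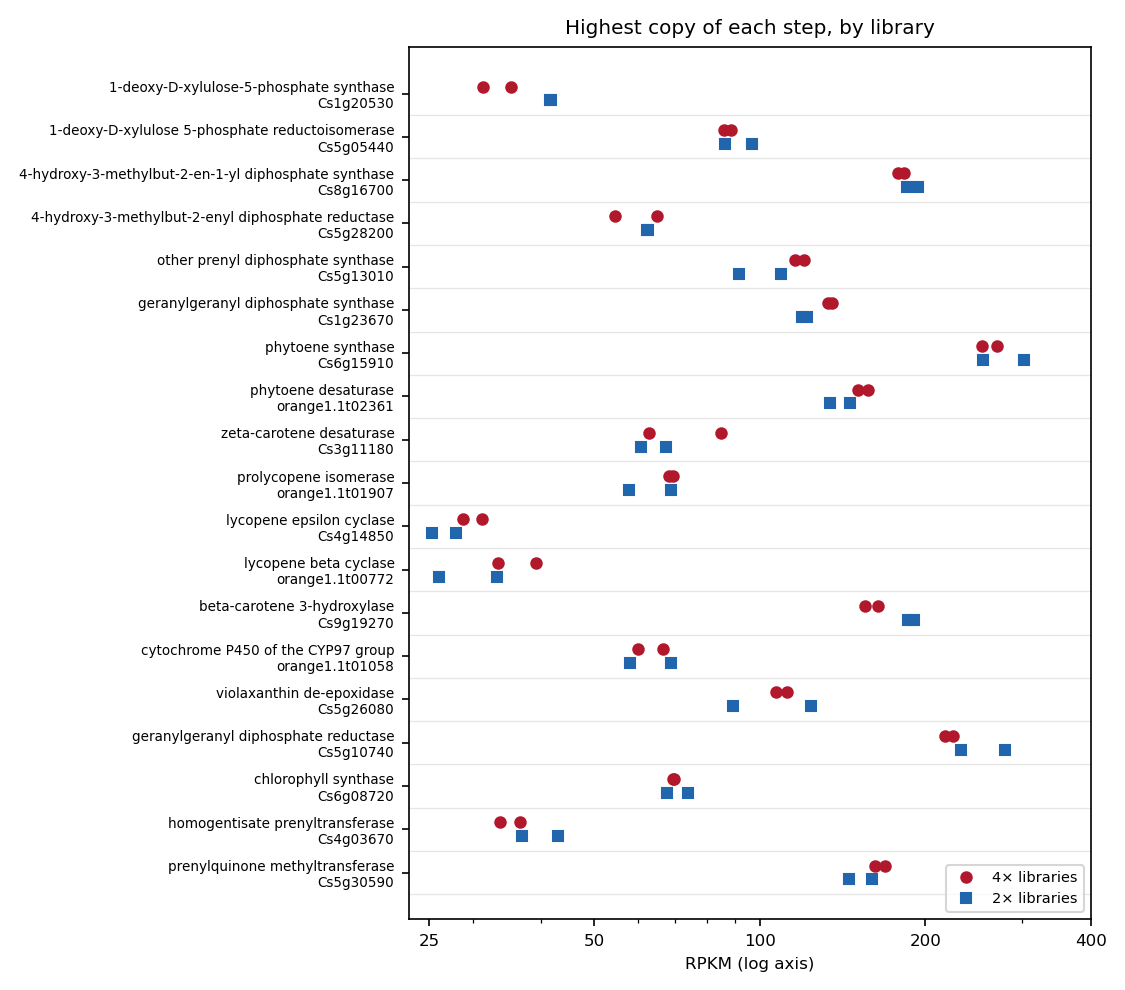
RPKM (log axis) of the highest copy of each step in the pathway's order, with the step's name and the gene identifier at the left. Circles are the 2 4× libraries and squares the 2 2× libraries. The highest phytoene synthase and geranylgeranyl diphosphate reductase had the highest levels, each above 200 RPKM in every library, and the lycopene cyclases were among the lowest, from 25.3 to 39.1 RPKM.

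The synthesis of prenyl diphosphates held 18 members, 9 of them tested. Geranylgeranyl diphosphate synthase alone had 13 genes, of which 5 were at 0 RPKM in all libraries and 4 were tested, and a single gene, Cs1g23670, held 78.1% to 85.2% of the summed level. It had 135 and 133 RPKM in 4× and 119 and 122 RPKM in 2×, so the groups did not overlap, with a difference of 0.15 (95% interval -0.08 to 0.38, adjusted p = 0.601). A pair of copies with neighbouring identifiers lay on the other side. Cs6g17500 had 21.5 and 19.2 RPKM in 4× and 27.1 and 23.2 RPKM in 2× (difference -0.30, unadjusted p = 0.0415, adjusted p = 0.349 by limma). Cs6g17510 had 2.35 and 2.40 RPKM in 4× and 3.38 and 4.69 RPKM in 2× (difference -0.64, SE 0.22, unadjusted p = 0.0155, adjusted p = 0.220), and the size moved to -0.43 without 2×-2 and -0.85 without 2×-1.

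Other synthases of this group make shorter or longer chains. A gene described as geranyl diphosphate synthase, Cs5g13010, had 116 and 120 RPKM in 4× and 91.7 and 109 RPKM in 2×, and its difference of 0.24 (95% interval -0.03 to 0.50) was 0.11 without 2×-1. The farnesyl diphosphate synthase Cs4g08260, which feeds sterols in the cytosol, had 30.6 and 30.8 RPKM in 4× and 32.5 and 31.0 RPKM in 2×. The geranylgeranyl diphosphate synthase-related protein Cs8g02140 overlapped between the groups, at 57.9 and 54.1 RPKM in 4× and 53.1 and 57.6 RPKM in 2×.

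Phytoene synthesis and desaturation, the committed part of the pathway, held 15 members, 13 of them tested. Phytoene synthase was carried almost wholly by Cs6g15910, which held 95.2% to 97.6% of the summed level of its 3 genes. It had 270 and 253 RPKM in 4× and 254 and 302 RPKM in 2×, with overlapping groups and a difference of -0.09 (95% interval -0.37 to 0.20), and the sign turned to 0.04 without 2×-2. The minor copy, orange1.1t02108, had 11.2 and 6.30 RPKM in 4× and 12.8 RPKM in each 2× library. Its difference was -0.57 (SE 0.22, 95% interval -1.07 to -0.07, unadjusted p = 0.0295, adjusted p = 0.299 by limma). This rested on 4×-2: without 4×-1 the difference was -0.97 and was called (adjusted p = 0.0136 by limma), and without 4×-2 it was -0.18 (adjusted p = 0.838). The third gene, orange1.1t02112, had 0 RPKM in every library.

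Desaturation of phytoene was carried by several well expressed genes, none of them called. Of the 2 phytoene desaturase genes, which introduce the first double bonds, orange1.1t02361 had 151 and 157 RPKM in 4× and 134 and 146 RPKM in 2×, and Cs8g02300 had 119 and 124 RPKM in 4× and 102 and 113 RPKM in 2×. Neither overlapped between the groups, where 43.7% of all tested genes did not. Their differences were 0.14 (95% interval -0.10 to 0.38) and 0.17 (95% interval -0.07 to 0.42). Prolycopene isomerase, which turns the poly-cis product into all-trans lycopene, had the only member with an unadjusted p below 0.05 and a higher level in 4×: Cs6g13340 had 31.0 and 36.0 RPKM in 4× and 27.4 and 27.8 RPKM in 2×. Its difference was 0.27 (SE 0.12, 95% interval 0.01 to 0.53, unadjusted p = 0.0423, adjusted p = 0.352 by limma). The second isomerase gene, orange1.1t01907, had more transcript, with 68.3 and 69.6 RPKM in 4× and 57.7 and 69.0 RPKM in 2×, and its difference of 0.13 was -0.00 without 2×-1.

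Zeta-carotene desaturase, which completes the desaturation, was described for 8 genes, and 6 of these had Cs3g11 identifiers close to each other. The 2 highest, Cs3g11170 and Cs3g11180, have consecutive numbers in that series and moved in opposite ways between the libraries of the same ploidy. Cs3g11170 had 89.7 and 56.7 RPKM in 4×-1 and 4×-2 and 54.9 and 64.8 RPKM in 2×-1 and 2×-2. Cs3g11180 had 62.7 and 84.9 RPKM in 4×-1 and 4×-2 and 67.5 and 60.7 RPKM in 2×-1 and 2×-2. The order of the copies was thus exchanged between the 4× libraries and again between the 2× libraries.

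Cs3g11170 took 45.1% of the recovered reads of the pair in 4×-1 (95% Wilson interval 42.8% to 47.3%, of 1829 reads) and 27.7% in 4×-2 (25.7% to 29.8%, of 1784 reads). In 2×-1 it took 31.8% (29.5% to 34.1%, of 1581 reads) and in 2×-2 37.9% (35.6% to 40.3%, of 1600 reads). The intervals cover counting error only, not the spread between pools, and the reads of each copy are known up to a factor that is the same in all libraries. The sum of both copies varied less, at 152 and 142 RPKM in 4× and 122 and 126 RPKM in 2×. Only uniquely mapped reads were counted, so the split between copies of like sequence is uncertain, and the part of such sharing in these values was not tested. Over all 8 genes the sum was 188 and 182 RPKM in 4× and 161 and 166 RPKM in 2×, while none of the 7 tested genes was called and their differences ran from -0.22 to 0.26. A short copy, orange1.1t06069, lay above in 4× at 5.44 and 5.02 RPKM against 3.87 and 4.89 RPKM in 2× (difference 0.24), and this was 0.09 without 2×-1.

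**Figure D3:**
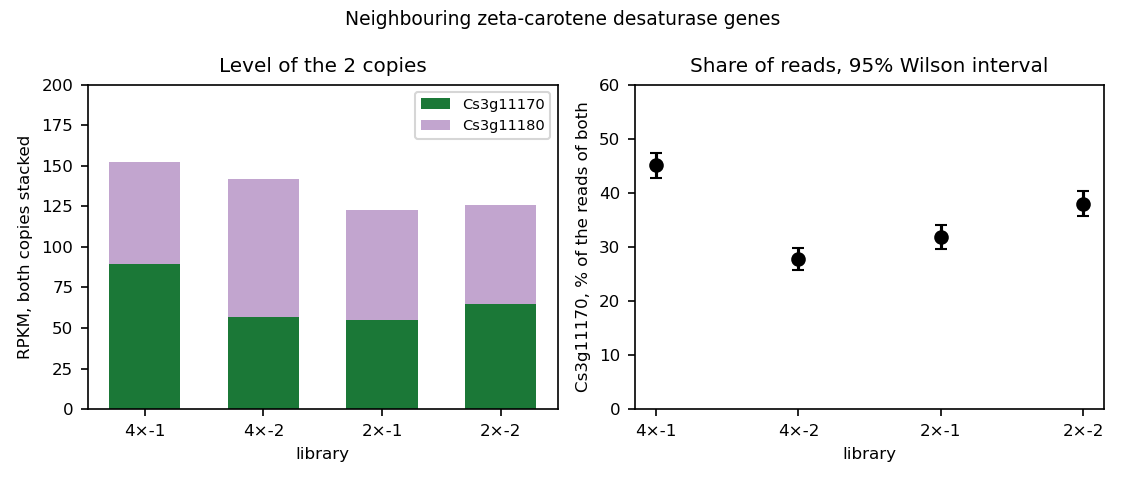
Zeta-carotene desaturase genes Cs3g11170 and Cs3g11180 by library. Left, the RPKM of the 2 copies stacked, with sums of 152 and 142 in 4× and 122 and 126 in 2×. Right, the share of the pair's recovered reads taken by Cs3g11170 with its 95% Wilson interval, from 27.7% in 4×-2 to 45.1% in 4×-1.

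At the branch point, both lycopene cyclases lay above in 4×, as did 17.5% of all tested genes, and neither was called. The beta cyclase orange1.1t00772, which forms the beta rings of carotene and zeaxanthin, had 39.1 and 33.4 RPKM in 4× and 26.1 and 33.2 RPKM in 2×, so the closest libraries of the groups were nearly equal. Its difference was 0.29 (SE 0.14, 95% interval -0.02 to 0.60, adjusted p = 0.420 by limma), and it was 0.12 without 2×-1 and 0.46 without 2×-2. The epsilon cyclase Cs4g14850, which directs lycopene to lutein, had 28.8 and 31.2 RPKM in 4× and 25.3 and 28.0 RPKM in 2× (difference 0.17, 95% interval -0.09 to 0.42). The ratio of epsilon to beta cyclase level was 0.735 and 0.934 in 4× and 0.969 and 0.843 in 2×, and the groups overlapped.

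The hydroxylation of carotenes had 5 members, 4 of them tested. The beta-carotene hydroxylase Cs9g19270, which makes zeaxanthin, had 155 and 164 RPKM in 4×, below the 191 and 186 RPKM in 2×. Its difference was -0.24 (SE 0.11, 95% interval -0.48 to 0.01, unadjusted p = 0.0541, adjusted p = 0.387 by limma), and it stayed between -0.28 and -0.19 whichever library was left out. The other hydroxylase of this kind, Cs5g03200, had 0.615 and 0.260 RPKM in 4× and 0 and 0.121 RPKM in 2×, from 7 recovered reads in 4× and 1 in 2×. Of the 3 cytochrome P450 genes of the CYP97 group, which hydroxylate rings on the way to lutein, the highest was orange1.1t01058, with 66.5 and 60 RPKM in 4× and 57.9 and 68.9 RPKM in 2× (difference -0.00, 95% interval -0.27 to 0.27). The differences of the other P450 genes were 0.10 for Cs6g11420 and 0.07 for orange1.1t01082, with intervals that held 0.

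Violaxanthin de-epoxidase returns violaxanthin to zeaxanthin in strong light. Its gene Cs5g26080 had 107 and 112 RPKM in 4× and 89.3 and 124 RPKM in 2×, so both 4× values lay between the 2× values. The difference was 0.06 (95% interval -0.27 to 0.39) and turned to -0.17 without 2×-1. The related gene Cs1g04080 had 29.7 RPKM in both 4× libraries and 26.1 and 30.1 RPKM in 2×.

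The 4 carotenoid cleavage dioxygenases among the members were barely detected. Described as family 7 of that enzyme, which acts in strigolactone synthesis, Cs1g25090 had 0 RPKM in every library, as did Cs6g19550. Cs4g19460 had 0.113 and 0.119 RPKM in 4× and 0.0566 and 0.0553 RPKM in 2×, which was 4 recovered reads in 4× and 2 in 2×. Cs4g19470 had 0 RPKM in both 4× libraries and 0.0630 and 0.0615 RPKM in 2×, which was 2 reads. A difference between the groups was not detectable at this depth for these genes.

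Geranylgeranyl diphosphate reductase makes the phytyl tail of chlorophyll and tocopherol. Both of its genes lay below in 4×, as did 26.2% of all tested genes, and 1 gene held 99% to 99.5% of the summed level. The leading gene, Cs5g10740, had 217 and 224 RPKM in 4× and 232 and 279 RPKM in 2×, with a difference of -0.21 (95% interval -0.49 to 0.08, adjusted p = 0.542) that was -0.07 without 2×-2. The minor gene, Cs2g26780, had the lowest difference of all tested members, -0.72 (SE 0.25, 95% interval -1.28 to -0.16, unadjusted p = 0.0172, adjusted p = 0.233 by limma). Its level was low, at 1.38 and 1.07 RPKM in 4× and 2.40 and 2.26 RPKM in 2×, from 26 recovered reads in 4× and 51 in 2×.

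**Figure D4:**
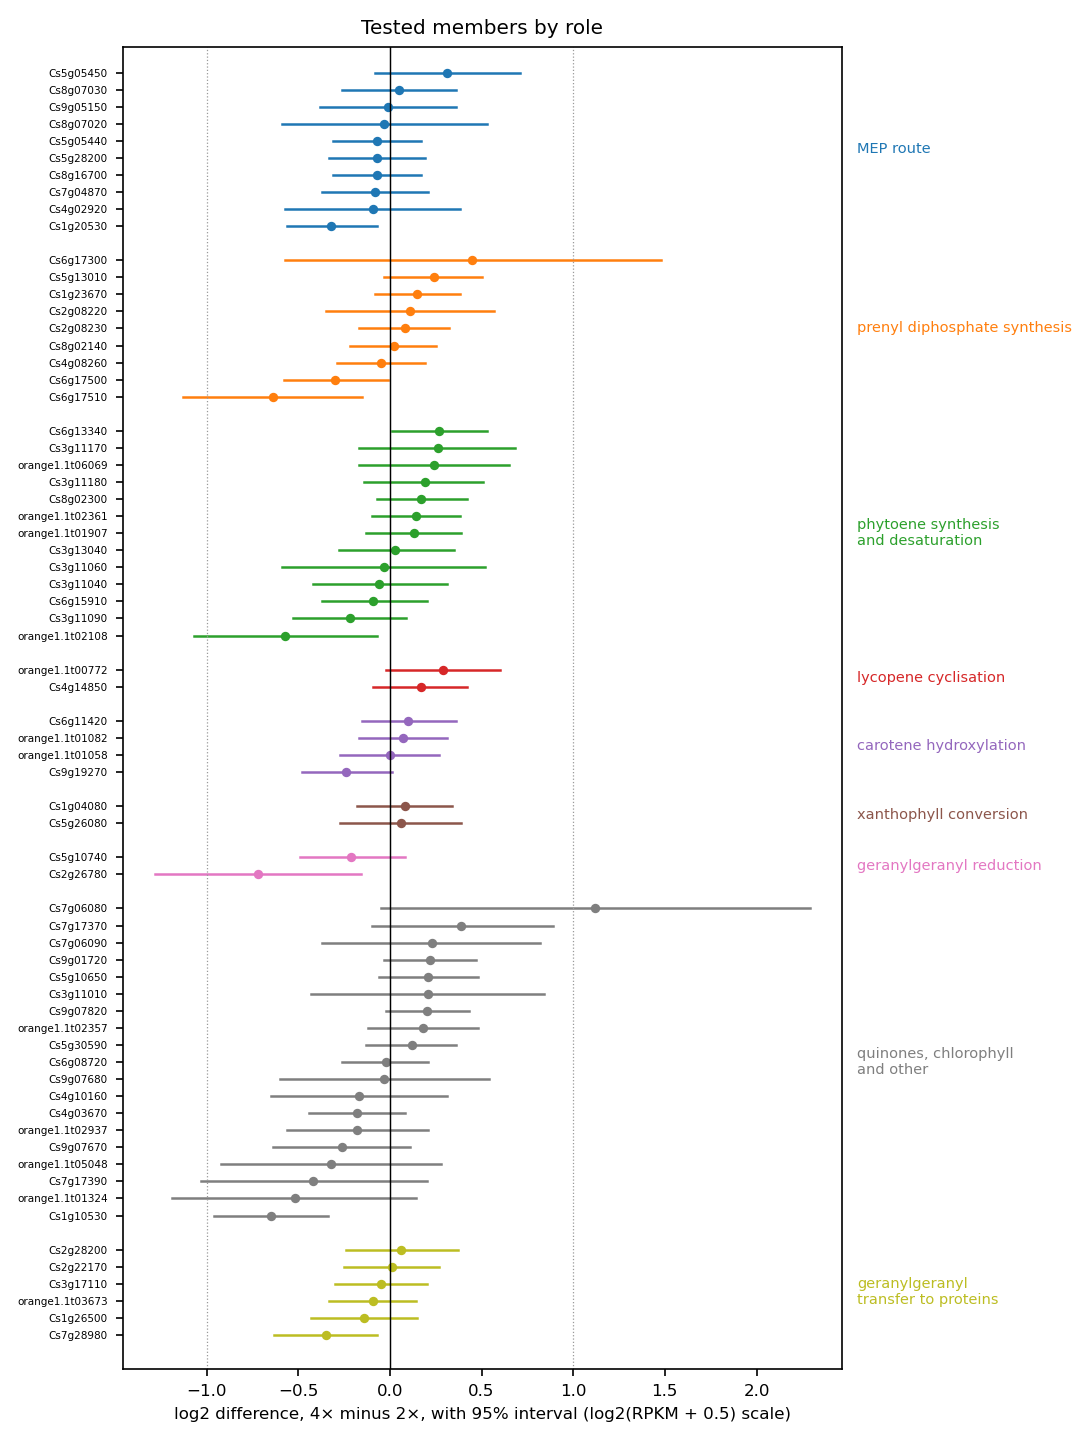
Log2 difference, 4× minus 2×, of the 67 tested members with its 95% interval from limma, grouped by role and sorted within each role. Points are estimates and lines are intervals, and dotted lines mark 1 log2 unit either way. The differences ran from -0.72 to 1.12 and 60 of the intervals lay between the dotted lines.

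Prenyl transfer to homogentisate begins tocopherol and plastoquinone synthesis. With 16 genes so described, this was the most numerous step, but 7 of the detected genes fell below the test's level and only Cs4g03670 and Cs7g17370 had more than 15 RPKM in any library. Cs4g03670 had 36.6 and 33.7 RPKM in 4× and 36.9 and 43.0 RPKM in 2× (difference -0.18, 95% interval -0.44 to 0.08). The gene described first as homogentisic acid geranylgeranyl transferase, Cs1g10530, came nearest to a call of all members. It had 8.73 and 7.90 RPKM in 4×, below the 12.7 and 14.0 RPKM in 2×, from 260 recovered reads in 4× and 432 in 2×. The mean was 8.32 ± 0.591 RPKM in 4× and 13.4 ± 0.917 RPKM in 2× (SD, n = 2 each), a ratio of 0.622. The difference was -0.65 (SE 0.14, 95% interval -0.96 to -0.34), with an unadjusted p of 0.000919 and an adjusted p of 0.058 from limma, and it stayed between -0.72 and -0.58 with each library left out. It was called by limma voom on the recovered reads (difference -0.68, adjusted p = 0.0251), and its adjusted p over the alternatives ran between 0.00495 and 0.272.

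The other homogentisate prenyltransferases varied within a ploidy. Cs7g06080 had the largest positive difference of the tested members, 1.12, but its 95% interval was -0.05 to 2.29, with 2.83 and 1.30 RPKM in 4× and 1.55 and 0.121 RPKM in 2×, and the difference was 0.26 without 2×-2 and 1.98 without 2×-1. Cs7g17370 had 12.2 and 19.3 RPKM in 4× and 9.73 and 13.7 RPKM in 2×. The gene orange1.1t01324 had 2.32 and 2.45 RPKM in 4× and 5.27 and 2.47 RPKM in 2×, so its difference of -0.52 rested on 2×-1 and was -0.04 without that library.

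Enzymes that finish other plastid prenyl lipids had small differences. Chlorophyll synthase, Cs6g08720, which attaches the prenyl tail to chlorophyll, had 69.7 and 69.4 RPKM in 4× and 67.7 and 74.0 RPKM in 2×, with a difference of -0.02 (95% interval -0.26 to 0.21). The methyltransferase Cs5g30590, an envelope enzyme of the plastoquinone and tocopherol routes, had 169 and 162 RPKM in 4× and 145 and 160 RPKM in 2× (difference 0.12, 95% interval -0.13 to 0.36). Its relative Cs9g07820 had 50.6 and 48.7 RPKM in 4× and 42.5 and 43.6 RPKM in 2× (difference 0.20, 95% interval -0.02 to 0.43, adjusted p = 0.439 by limma), and this was 0.18 to 0.23 with single libraries left out.

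Protein prenyltransferases use geranylgeranyl or farnesyl diphosphate to anchor signalling proteins to membranes. Of 6 genes of this kind, 5 were tested, and both 4× libraries lay below both 2× libraries for 3, where 26.2% of all tested genes did. The highest, the shared alpha subunit orange1.1t03673, had 34.1 and 33.4 RPKM in 4× and 37.5 and 34.6 RPKM in 2× (difference -0.09). The beta subunit of the type I geranylgeranyl enzyme, Cs7g28980, had 15.1 and 15.8 RPKM in 4× and 18.5 and 21.2 RPKM in 2× (difference -0.35, SE 0.12, unadjusted p = 0.0186, adjusted p = 0.244 by limma).

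The most abundant transcript among the members belonged to an early light-induced protein, a pigment-binding protein of thylakoids in stressed or young leaves. Cs9g07680 had 4089 and 3898 RPKM in 4× and 3830 and 4334 RPKM in 2× (difference -0.03, 95% interval -0.60 to 0.54). Its relative Cs9g07670 had 798 and 628 RPKM in 4× and 818 and 884 RPKM in 2× (difference -0.26, 95% interval -0.64 to 0.11). Together they made up 4887 of the 8151 RPKM of all members in 4×-1, so a sum over the whole list mostly follows these genes, and the sums over the 79 members led by a pathway enzyme were 2765 and 2755 RPKM in 4× and 2609 and 2892 RPKM in 2×. Plastid ribosomal protein S1 had 3 genes with positive differences from 0.18 to 0.22, all with intervals that held 0.

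Neighbouring steps outside the word rule were looked up by a companion list of 63 genes, 47 of them tested and none called (1.39% of all tested genes were). At an unadjusted limma p below 0.05 stood 12, with 4 higher and 8 lower in 4×. This was 25.5%, against 13.3% of all tested genes. The list was chosen with earlier results of these data known, so this share is not independent of them. The median difference over the list was 0.012. The remaining MEP steps resembled those above: the cyclodiphosphate synthase Cs5g03050 had 139 and 143 RPKM in 4× and 150 and 161 RPKM in 2× (difference -0.14, 95% interval -0.38 to 0.10). Isopentenyl diphosphate isomerase, Cs6g02690, had 160 and 139 RPKM in 4× and 149 and 155 RPKM in 2×.

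The cytosolic mevalonate route makes the same isoprenoid unit, mainly for sterols. Of 10 tested genes from hydroxymethylglutaryl-CoA synthase to squalene synthase, with those matched as farnesyl diphosphate synthase, none was called. At an unadjusted limma p below 0.05 stood 5, with 1 higher and 4 lower in 4×. This was 50%, against 13.3% of all tested genes, and these genes too were chosen with earlier results of these data known. The differences were negative for 9 of the 10, and for 8 after median of ratios scaling. The median over all tested genes was -0.027, and 0.003 after that scaling. The negative differences smallest in size were -0.02 for Cs6g08290 and -0.05 for Cs4g08260. Both 4× libraries lay below both 2× libraries for 7 of the 10, as for 26.2% of all tested genes, and above for 1, as for 17.5%. The exception was Cs8g20110, led by the name of a cis-prenyl synthase, with 25.1 and 29.5 RPKM in 4× and 22.6 and 19.3 RPKM in 2× (difference 0.37, unadjusted p = 0.0181, adjusted p = 0.240 by limma). Hydroxymethylglutaryl-CoA synthase Cs5g10140 had 24.3 and 22.2 RPKM in 4× and 31.2 and 28.2 RPKM in 2× (difference -0.35, SE 0.12, adjusted p = 0.209 by limma). The decarboxylase Cs7g20540 had 21.3 and 25.2 RPKM in 4× and 28.4 and 28.0 RPKM in 2× (difference -0.28, adjusted p = 0.361 by limma). Squalene synthase Cs8g08490 had 35.8 and 34.7 RPKM in 4× and 45.9 and 43.4 RPKM in 2× (difference -0.34, SE 0.10, adjusted p = 0.172 by limma). The list, one of whose genes is first described as a galactokinase, had no hydroxymethylglutaryl-CoA reductase, since no description outside the members matched its words.

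**Figure D5:**
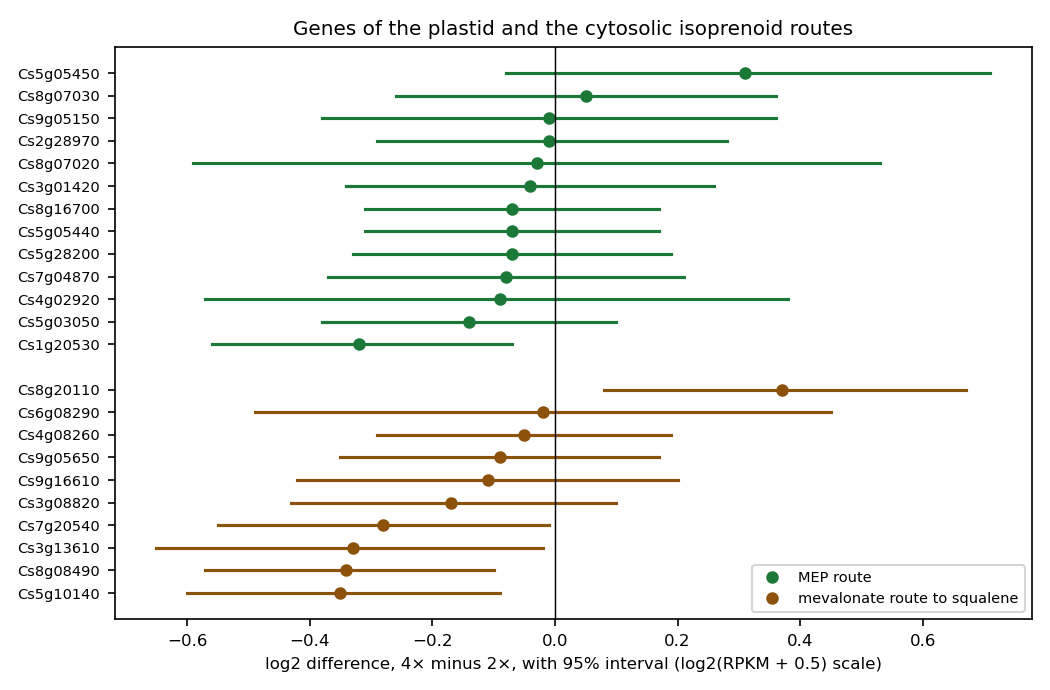
Log2 difference, 4× minus 2×, with its 95% interval for the tested genes of the plastid MEP route (above, members and the companion steps) and of the mevalonate route to squalene synthase, with the genes matched as farnesyl diphosphate synthase (below). The 10 differences of the mevalonate route ran from -0.35 to 0.37 and those of the MEP route from -0.32 to 0.31.

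The 5 zeaxanthin epoxidase genes, which make violaxanthin, had differences from 0.03 to 0.27. The highest, Cs1g22620, had 229 and 253 RPKM in 4× and 191 and 234 RPKM in 2× (difference 0.18, 95% interval -0.11 to 0.48, and 0.04 without 2×-1). Only Cs2g26760 did not overlap between the groups, where 43.7% of all tested genes did not, with 48.9 and 41.9 RPKM in 4× and 35.3 and 39.5 RPKM in 2× (unadjusted p = 0.0456, adjusted p = 0.362 by limma). Genes whose text names 9-cis-epoxycarotenoid dioxygenase were led by one first described as carotenoid cleavage dioxygenase 1, Cs7g01710, with 663 and 700 RPKM in 4× and 575 and 687 RPKM in 2× (difference 0.12, and -0.01 without 2×-1). The adjacent number, Cs7g01700, the only one of the 4 tested genes whose groups did not overlap, had 42.1 and 50.9 RPKM in 4× and 31.1 and 40.0 RPKM in 2× (difference 0.39, SE 0.14, unadjusted p = 0.0239, adjusted p = 0.272 by limma). Plastid-lipid-associated proteins, which coat carotenoid-rich plastoglobules, had 12 tested genes with differences from -0.09 to 0.21, and the highest, Cs2g02520, had 128 and 137 RPKM in 4× and 135 and 146 RPKM in 2×.

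Of the tocopherol and homogentisate group, 12 of 23 genes were tested and none was called by limma. At an unadjusted limma p below 0.05 stood 5, with 1 higher and 4 lower in 4×. This was 41.7%, against 13.3% of all tested genes. The group is part of the companion list, which was chosen with earlier results of these data known. The lowest difference was that of orange1.1t00081, first described as phosphoethanolamine N-methyltransferase, with 2.59 and 2.73 RPKM in 4× and 4.47 and 6.44 RPKM in 2× (difference -0.89, SE 0.21, adjusted p = 0.0867 by limma and 0.0107 by voom). Homogentisate dioxygenase, orange1.1t04550, which breaks down the tocopherol precursor, lay above in 4×, at 58.5 and 63.5 RPKM against 52.2 and 44.8 RPKM in 2× (difference 0.33, adjusted p = 0.233 by limma). The highest gene of the group by the words, Cs7g06000, is described as an aspartate aminotransferase and had 128 and 112 RPKM in 4× and 121 and 117 RPKM in 2×. Tocopherol cyclase, Cs4g19670, had 56.7 and 63.9 RPKM in 4× and 55.2 and 60.2 RPKM in 2×.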

How the data were processed

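Gene expression of mature leaves was compared between 2 libraries of 4× and 2 of 2×, grouped by the sample labels. The authors removed low-quality reads, aligned the rest to the C. sinensis genome with TopHat2 2.0.9, that is, to another species, and deposited RPKM per gene from uniquely mapped reads. How strand was used is not given in the sources used here. Every value column was used. The members, roles and lists were chosen with earlier results of these data known.

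RPKM was transformed to log2(RPKM + 0.5), and genes whose mean reached 1 RPKM were tested 4× against 2× with limma 3.58.1 in R 4.3.3 (trended eBayes, two-sided tests, Benjamini-Hochberg over 16157 genes). An adjusted p below 0.05 was a call. The differences understate changes of low genes. The p-values rest on the spread between pools, 2 per group, moderated by eBayes toward a trend over all tested genes. The interval of a gene is thus not set by its own 4 libraries alone.

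Whole reads were recovered from RPKM for 24073 of 24073 detected genes, within 0.001 reads, up to a factor shared by a gene's 4 counts, and tested with limma voom, which called 404 genes. On simulated 4× against 2× libraries (15997 genes), limma recovered 67 of 100 genes changed by 1 log2 unit and 92 of 100 changed by 2, with 13 unchanged genes called. The simulated spread between libraries was set by a fixed formula, not estimated from these pools, so recovery in the real data may differ. Named by rule were called members, the highest gene of each role and companion step, and the 5 largest differences in each direction among members whose groups did not overlap. All other genes were named after their values were seen. Alternatives were pseudocounts of 0.1 and 1, no filter, a mean of at least 3 RPKM, median of ratios scaling, robust eBayes, a replicate block, each library left out and voom. Other steps used Python 3.11.15, pandas 2.3.3, scipy 1.17.1 and matplotlib 3.10.9.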

Additional observations from a re-analysis of the deposited data

How the results depend on the processing

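The count of calls over all tested genes was 224 and stayed within 1.5 times under both pseudocounts, a mean of at least 3 RPKM, median of ratios scaling and robust eBayes. It was 0 of 24073 genes without a filter (limma; 2438 at an unadjusted p below 0.05), 404 with voom, 832 with the replicate block, and 77 to 264 with a library left out. Calls among the members were 0, and became 1 with a mean of at least 3 RPKM and with voom (Cs1g10530 in both), 3 with the replicate block (Cs1g10530, Cs7g06080 and orange1.1t02108), and 0 to 1 with a library left out (orange1.1t02108 without 4×-1). Counted only over members led by the name of a pathway enzyme, an alternative chosen after seeing the data, they were 0. The companion list had 0 calls, and 1 with voom and 1 with the replicate block. The block rests on replicate numbers that nothing ties to a shared plant or day, and deviations of same-numbered libraries correlated at -0.046 over 16157 genes.

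Of 335 values of 28 named genes under the alternatives, 319 kept their sign and side of the threshold, 5 became calls and 11, of 6 genes, changed sign. With single libraries left out, Cs5g26080 ranged from -0.17 to 0.29, Cs9g07680 from -0.12 to 0.06, Cs6g15910 from -0.21 to 0.04, Cs6g02690 from -0.13 to 0.08, Cs7g01710 from -0.01 to 0.24 and Cs7g06000 from -0.08 to 0.11. Median of ratios scaling gave 0.00 for Cs9g07680 and 0.01 for Cs6g02690. The causes were not tested. Where a library was left out, the lone library of its group was assumed to vary like the other group. Depth limits the 28 members below the filter, which were not tested.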
